A study of Mus musculus with 6 samples.

Results

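Cadherins and protocadherins are cell surface proteins through which cells hold on to and recognise their neighbours. Of the genes measured on the array, 44 belonged to this family by their symbol: 15 Cdh genes and 29 Pcdh genes, read by 55 probe sets that the platform annotation assigns to 1 gene each, out of 12393 genes and 22626 probe sets in all. Cdh1, Cdh5 and Pcdh8 were not counted among them. A further 6 probe sets name 9 or 14 genes of the alpha cluster at once and were left out for that reason. The Cdh genes comprised 4 classical cadherins of type I, 7 of type II and 4 others. The Pcdh genes comprised 7 that are not part of a protocadherin cluster and all of Pcdhb1 to Pcdhb22, the 22 genes of the beta cluster. The tissue came from mouse embryos of the c57bl/6 strain at 9.5 days post coitum. It was cut between the otic placode and the youngest somite, heart and endoderm were taken away, and the rest was kept whole, so it holds more than somites. The groups were 3 pools of wild-type embryos and 3 pools of embryos with the neo allele of Dll3 (tm1Rbe) on both chromosomes, a targeted allele of the gene for a divergent Notch ligand. Strain, age and tissue carry the same labels in both. The sources used here do not say how many embryos made up a pool. In such bulk tissue, fewer cells of a type and less RNA per cell cannot be told apart.

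Classical cadherins bind a cadherin of the same kind on the neighbouring cell through their outer domains, and their tails hold beta-catenin and p120-catenin, which link the junction to actin. In the trunk, N-cadherin (Cdh2) holds the epithelial somite and the neural tube together. When paraxial mesoderm forms a somite its cells become epithelial, and when the sclerotome leaves the somite they become mesenchymal again, with a change in the cadherins they carry. Non-clustered protocadherins of the delta group adhere weakly and act in cell sorting and migration. Clustered protocadherins are chosen in varied sets by single neurons, which use them to tell their own branches from those of others.

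Promoter sequences were available for 13 of the 44 genes. Those of 3 are shown: Cdh10 and Cdh23, the Cdh genes in which the pools of the 2 genotypes did not overlap, and Cdh15, the cadherin of muscle cells, whose values are set beside those of myotome markers. Each runs 5′ to 3′ from 250 bases before to 50 after the start of the gene in RefSeq (GRCm38.p6). Capitals mark the E-box letters CANNTG, the core bound by basic helix-loop-helix factors such as the myogenic regulators. They lie at chr15:18820079-18820378 on the plus strand, chr10:60696441-60696740 on the minus strand and chr8:122848124-122848423 on the plus strand.
Cdh10: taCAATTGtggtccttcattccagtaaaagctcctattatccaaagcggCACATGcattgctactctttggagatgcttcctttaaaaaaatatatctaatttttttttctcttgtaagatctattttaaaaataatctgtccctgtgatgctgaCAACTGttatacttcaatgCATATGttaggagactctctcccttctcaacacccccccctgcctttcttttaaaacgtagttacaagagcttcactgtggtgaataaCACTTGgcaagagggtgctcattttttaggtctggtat
Cdh23: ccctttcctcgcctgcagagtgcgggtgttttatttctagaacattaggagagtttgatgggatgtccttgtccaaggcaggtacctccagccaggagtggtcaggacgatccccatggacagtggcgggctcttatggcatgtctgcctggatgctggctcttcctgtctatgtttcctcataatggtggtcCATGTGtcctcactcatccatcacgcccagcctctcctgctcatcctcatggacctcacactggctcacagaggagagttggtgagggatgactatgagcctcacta
Cdh15: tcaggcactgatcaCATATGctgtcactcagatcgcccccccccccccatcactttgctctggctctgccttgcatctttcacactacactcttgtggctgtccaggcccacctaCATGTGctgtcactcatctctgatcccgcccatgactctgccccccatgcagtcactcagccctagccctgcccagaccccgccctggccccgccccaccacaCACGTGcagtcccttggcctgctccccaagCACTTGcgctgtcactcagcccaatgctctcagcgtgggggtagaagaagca
CANNTG, which reads the same on both strands, was found 5 times in the Cdh10 window, 1 time in that of Cdh23 and 4 times in that of Cdh15. It was present in 9 of the 13 promoters and in 72.3% of all 32851 promoters of this length, so its presence is common. CAGGTG, a form of CANNTG that Snail repressors bind, was searched on both strands and lay in the windows of Pcdh7 and Pcdh15, 2 of 13, against 20.2% of all. GTGGGAA, the letters of the Notch effector RBPJ, lay on either strand in 1 of 13, that of Pcdh20, against 6.38% of all. A match is only a run of letters, and binding was not measured here.

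Each deposited value is a ratio of 1 pool to a reference of that probe set, with a median of 1 over the 6 pools in most probe sets, so pools are compared within a gene and levels of different genes are not. For the same reason it could not be checked whether marker genes of the labelled tissue were present or absent. Where a gene has several probe sets its ratio is their geometric mean. The study set out to find genes of this tissue that are disrupted when Dll3 is mutated. Differences are given as log2 of mutant minus wild-type, from limma over all 12393 genes, with the standard error (SE) and the 95% interval of each gene.

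No cadherin or protocadherin gene differed between the genotypes past an adjusted p of 0.05. Every one of the 44 had an adjusted p of 0.9997 (limma with Benjamini-Hochberg adjustment over all genes), and of all genes 0 passed (0.0%), with Uncx, a homeobox gene of the caudal somite, nearest at 0.116. At an unadjusted p under 0.05 there was 1 member of 44, Cdh10, where 2.67% of all genes had such a p (1.31% higher and 1.36% lower in the mutant pools). The pools of the 2 genotypes did not overlap in 3 members, Cdh10 and Pcdhb3 (lower in the mutant pools) and Cdh23 (higher), against 7.46% of all genes (3.98% higher and 3.49% lower). Of the 44 members 17 were above and 27 below 0, against 51.9% and 48.1% of all genes. The members' differences ran from -0.20 for Pcdhb3 to 0.21 for Pcdhb13, where Uncx was at -0.998 (SE 0.124). The intervals of all 44 lay between -0.5 and 0.5, with -0.44 (Pcdhb1) as the lowest bound and 0.45 (Pcdhb13) as the highest. So did the intervals of 12221 of all 12393 genes. These intervals are per gene and not adjusted for their number. The median absolute difference was 0.067 over the members and 0.054 over all genes. Of the members 7 lay outside the range of -0.15 to 0.14 that holds the middle 90% of all genes, 5 of them in the beta cluster.

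**Figure D1:**
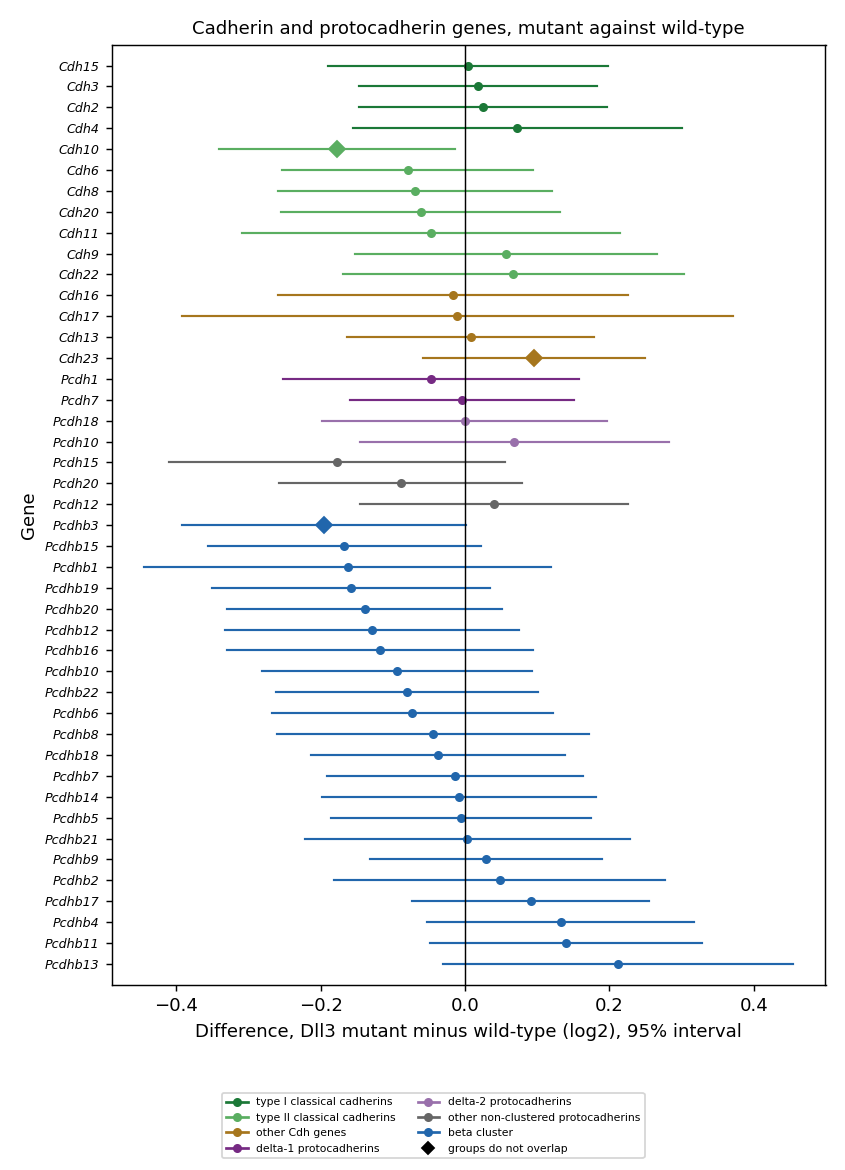
Difference between Dll3 mutant and wild-type pools on the log2 scale (x axis) for each of the 44 genes (y axis), coloured by class, with points for the limma estimate and bars for its 95% interval; diamonds mark the 3 genes whose pools do not overlap. All bars but that of Cdh10 cross 0, and that of Pcdhb3 ends at 0.001.

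The type I cadherins were near 0. Cdh2, N-cadherin, gave wild-type ratios of 0.975, 0.978 and 1.053 and mutant ratios of 0.982, 1.086 and 0.992. The highest value was in mutant replicate 2 and the groups overlapped. Its log2 difference was 0.02 (SE 0.078, 95% interval -0.15 to 0.20), and its 2 probe sets gave 0.03 and 0.02. Cdh3, P-cadherin of epithelia, was at 1.037, 0.963 and 0.976 in wild-type and 0.958, 1.024 and 1.032 in mutant pools. The mutant range held 2 of the wild-type values, and the difference was 0.02 (SE 0.074, 95% interval -0.15 to 0.18). Cdh4, R-cadherin, found in the developing nervous system and in kidney, read 0.915, 0.974 and 1.083 in wild-type and 1.019, 0.931 and 1.183 in mutant pools. It was highest in replicate 3 of each genotype, the groups overlapped, and the difference was 0.07 (SE 0.103, 95% interval -0.16 to 0.30). Cdh15, M-cadherin of myoblasts, had 0.939, 1.11 and 0.998 in wild-type and 0.964, 1.086 and 1.002 in mutant pools. The pools followed their number, with replicate 2 highest and replicate 1 lowest in both genotypes, and the difference was 0.00 (SE 0.087, 95% interval -0.19 to 0.20). All 4 differences were above 0, with a median of 0.021, and with each pool centred on its median Cdh15 was at -0.00 and 3 of 4 were above 0. Without mutant replicate 2 only 2 of 4 were (median -0.009), and without mutant replicate 3 also 2 of 4 (median 0.006), while leaving out any 1 wild-type pool gave 3 of 4.

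Type II cadherins bind by a different pocket and are spread over mesenchyme, crest and sets of neurons. Cdh10, a cadherin of the nervous system, gave wild-type ratios of 1.052, 1.022 and 1.069 and mutant ratios of 0.978, 0.895 and 0.907. Its highest mutant pool stayed under its lowest wild-type pool. Group means were 1.05 ± 0.024 (SD, n = 3) for wild-type against 0.927 ± 0.045 (SD, n = 3) for mutant. This made a log2 difference of -0.18 (SE 0.074, 95% interval -0.34 to -0.01, limma adjusted p = 0.9997). The difference ran from -0.22 to -0.13 over the 16 alternatives, with the last from the fit that adds the sex score, described with the markers. Its unadjusted p was above 0.05 in that fit, without any 1 of the wild-type pools, mutant replicate 2 or mutant replicate 3, without both pools numbered 3, and with the most variable probe set of each gene. Cdh6, a cadherin of early neural crest and kidney tubules, was at 1.006, 0.994 and 1.017 in wild-type and 0.96, 1.019 and 0.881 in mutant pools. Mutant replicate 3 was lowest and mutant replicate 2 highest of all 6, and the difference was -0.08 (SE 0.078, 95% interval -0.25 to 0.09). Cdh11, OB-cadherin of loose mesenchyme, read 0.93, 1.003 and 1.167 in wild-type and 0.861, 1.15 and 0.997 in mutant pools. The replicates of each genotype were far apart, with replicate 1 lowest in both, and the difference was -0.05 (SE 0.118, 95% interval -0.31 to 0.22). Cdh8, a cadherin of neurons, had 0.794, 0.929 and 0.792 in wild-type and 0.802, 0.826 and 0.763 in mutant pools. Only wild-type replicate 2 stood above the mutant range, and the difference was -0.07 (SE 0.086, 95% interval -0.26 to 0.12). The remaining 3 were Cdh20 at -0.06, Cdh9 at 0.06 and Cdh22 at 0.07, all with groups that overlapped. In this class 5 of 7 genes were below 0 with a median of -0.061, and 5 of 7 were also below 0 with quantile normalization or median centring. The fits with the sex score or array weights gave 4 of 7, as did those without wild-type replicate 2, wild-type replicate 3 or both pools numbered 3 (median -0.016 in the last). It was 6 of 7 without wild-type replicate 1, and 5 of 7 without any 1 of the mutant pools. Of all genes 48.1% were below 0, with a median of 0.0035.

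The other Cdh genes are built differently from the classical ones. Cdh23 is a very long cadherin that forms the tip link of sensory hair cells together with Pcdh15. Its ratios were 0.981, 0.99 and 0.988 in wild-type and 1.074, 1.027 and 1.059 in mutant pools. The mutant pools were all higher, with group means of 0.986 ± 0.0051 (SD, n = 3) for wild-type against 1.05 ± 0.024 (SD, n = 3) for mutant. The difference was 0.10 (SE 0.069, 95% interval -0.06 to 0.25). The separation exists in the mean of its 2 probe sets and in neither alone: the first gave 1.009, 0.977 and 0.991 against 1.159, 0.913 and 1.059, and the second gave 0.953, 1.004 and 0.985 against 0.996, 1.156 and 1.06. Mutant replicate 2 was thus the lowest pool by one probe set and the highest by the other. Pcdh15, the partner, had 1.094, 1.027 and 0.973 in wild-type and 1.056, 0.797 and 0.898 in mutant pools. Mutant replicates 2 and 3 lay below the wild-type range and replicate 1 inside it, and the difference was -0.18 (SE 0.105, 95% interval -0.41 to 0.06). Leaving out mutant replicate 1 gave -0.28, and leaving out mutant replicate 2 gave -0.08. Cdh17, a cadherin of intestine, had the widest spread of all members, with 1.275, 1.011 and 0.895 in wild-type and 1.358, 0.989 and 0.84 in mutant pools. Replicate 1 was high and replicate 3 low in both genotypes, and the difference was -0.01 (SE 0.172). Cdh16, a kidney cadherin, was at -0.02. Cdh13, T-cadherin, which is held in the membrane by a lipid anchor and has no tail for catenins, was at 0.01, with 0.10, -0.04 and -0.03 from its 3 probe sets.

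Over all 15 Cdh genes 8 were above and 7 below 0 with a median of 0.004, and with median centring or quantile normalization 7 were above and 8 below (medians of -0.0003 and -0.009).

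**Figure D2:**
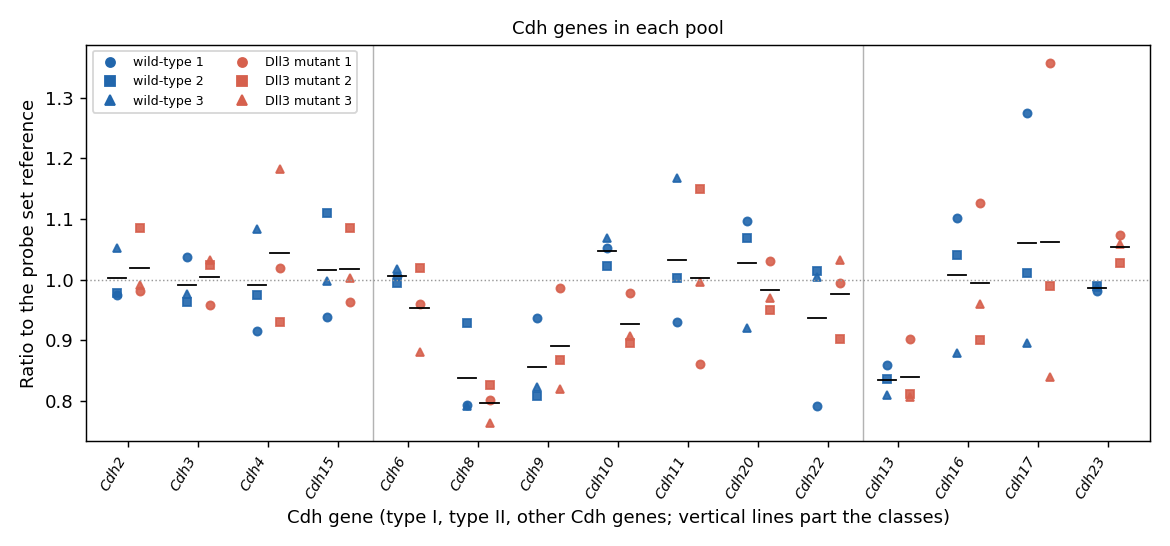
Ratio to the reference of the probe set (y axis, linear) in each of the 6 pools for the 15 Cdh genes (x axis, by class), with blue for wild-type and red for Dll3 mutant pools, the marker shape for the replicate number and a black bar for the mean of 3 pools. The colours part in Cdh10 and Cdh23 and mix in the other 13, and Cdh17 runs from 0.84 to 1.358.

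In all 7 non-clustered protocadherins the groups overlapped and the 95% interval crossed 0. Pcdh7, a delta-1 protocadherin, was the least variable member, at 1.022, 0.988 and 1.007 in wild-type and 1.031, 0.995 and 0.983 in mutant pools. The groups overlapped throughout, and the difference was -0.00 (SE 0.07, 95% interval -0.16 to 0.15), although its 2 probe sets gave -0.09 and 0.08. Pcdh1, of the same class, was at -0.05. Pcdh10, a delta-2 protocadherin of neural tissue and mesoderm, had 1.024, 1.007 and 0.971 in wild-type and 1.214, 0.993 and 0.957 in mutant pools. Mutant replicate 1 stood above the rest, and the difference was 0.07 (SE 0.096, 95% interval -0.15 to 0.28). Pcdh18, the other member of this class, was at 0.952, 1.03 and 1.026 in wild-type and 1.023, 1.094 and 0.898 in mutant pools. Mutant pools were both highest and lowest, the difference was -0.00 (SE 0.089, 95% interval -0.20 to 0.20), and its 3 probe sets gave -0.10, 0.08 and 0.02. Pcdh12, an endothelial protocadherin, was at 0.04, and Pcdh20 at -0.09 (SE 0.076, 95% interval -0.26 to 0.08). The 2 probe sets of Pcdh20 gave -0.12 and -0.06, and in the second alone the mutant pools were all lower than the wild-type pools.

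The beta cluster is a row of 22 genes on chromosome 18, each a single large exon with its own promoter. Its members resemble each other closely in sequence, so a probe set of 1 gene may also take up transcripts of its neighbours. Of the 22 genes 15 were below and 7 above 0, with a median of -0.041, and over all 29 Pcdh genes 20 were below and 9 above with a median of -0.037. Quantile normalization and median centring gave 16 of 22 below 0. The count below 0 was 10 of 22 (median 0.009) without mutant replicate 3, and 13 of 29 for the Pcdh genes (median 0.01). With both pools numbered 3 left out it was 13 of 22 (median -0.020) and 16 of 29 (median -0.007). Without mutant replicate 1 the count for the 22 was 17 (median -0.078), without mutant replicate 2 it was 13 (median -0.019), and 12 were below 0 when wild-type replicate 1 was left out (median -0.041).

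Pcdhb3 was the gene of the cluster with the smallest p. Its ratios were 1.005, 1.031 and 1.007 in wild-type and 0.868, 0.995 and 0.804 in mutant pools. The groups did not overlap, but mutant replicate 2 came close to the wild-type pools. Group means were 1.01 ± 0.014 (SD, n = 3) for wild-type against 0.889 ± 0.097 (SD, n = 3) for mutant. The difference was -0.20 (SE 0.089, 95% interval -0.39 to 0.001). It ran from -0.28 to -0.13 over the alternatives. Pcdhb13 had 1.038, 0.891 and 0.761 in wild-type and 1.094, 1.004 and 0.996 in mutant pools. The wild-type pools were widely spread and replicate 1 overlapped with the mutant range. The difference was 0.21 (SE 0.109, 95% interval -0.03 to 0.45). The fit with the sex score put it at -0.05. Leaving out wild-type replicate 1 gave 0.32, and leaving out wild-type replicate 3 gave 0.10. Pcdhb15 was at 1.083, 0.986 and 1.153 in wild-type and 0.949, 0.903 and 1.014 in mutant pools. Only mutant replicate 3 reached into the wild-type range, and the difference was -0.17 (SE 0.085, 95% interval -0.36 to 0.02). Pcdhb19 read 1.131, 1.07 and 0.976 in wild-type and 1.024, 0.934 and 0.889 in mutant pools. In both genotypes replicate 1 was highest and replicate 3 lowest, and the difference was -0.16 (SE 0.087, 95% interval -0.35 to 0.03). Pcdhb20 had 0.995, 1.005 and 1.033 in wild-type and 1.008, 0.829 and 0.926 in mutant pools. Mutant replicate 1 lay inside the wild-type range and the other mutant pools below it, and the difference was -0.14 (SE 0.086, 95% interval -0.33 to 0.05). Pcdhb11 was at 0.981, 1.011 and 0.957 in wild-type and 1.191, 0.989 and 1.078 in mutant pools. Mutant replicates 1 and 3 stood above the wild-type pools, and the difference was 0.14 (SE 0.085, 95% interval -0.05 to 0.33). The remaining 16 genes of the cluster lay between -0.16 (Pcdhb1) and 0.13 (Pcdhb4), and in all of them the groups overlapped. Genes next to each other in the cluster had differences of either sign: Pcdhb11 (0.14), Pcdhb12 (-0.13) and Pcdhb13 (0.21) follow one another.

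**Figure D3:**
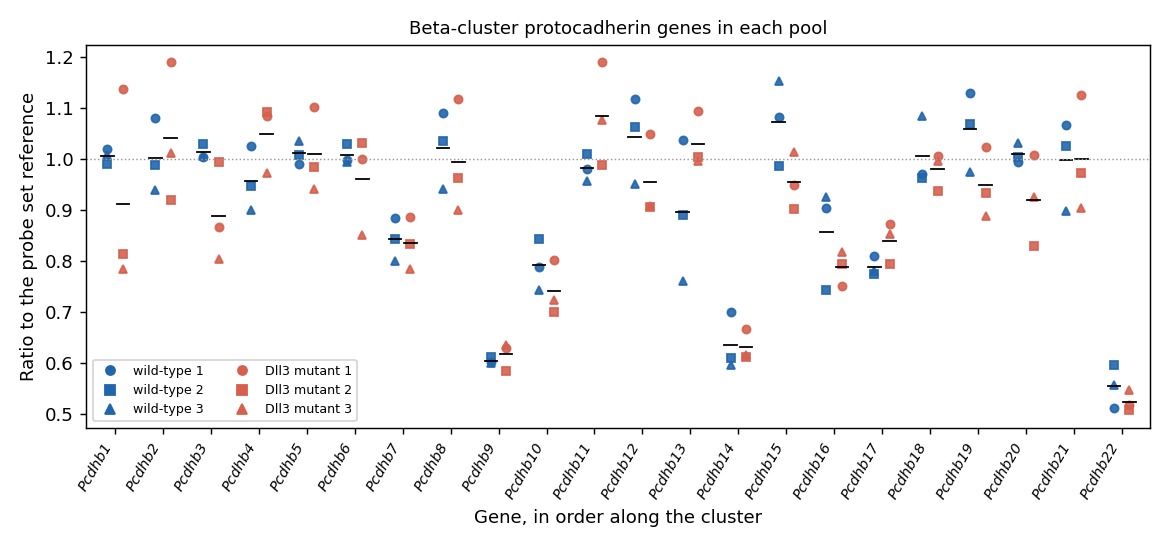
Ratio to the reference of the probe set (y axis, linear) in each pool for Pcdhb1 to Pcdhb22 (x axis, in their order along the cluster), with blue for wild-type and red for Dll3 mutant pools, the marker shape for the replicate number and a black bar for the mean of 3 pools. Pcdhb3 is the one gene whose colours part, and Pcdhb9, Pcdhb14 and Pcdhb22 lie at 0.7 or below in every pool.

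In the beta cluster the pools of 1 genotype differed among themselves by more than the genotypes did. In the 14 beta-cluster genes with a median ratio of 1, wild-type pools had mean log2 ratios of 0.06, 0.01 and -0.05, and mutant pools of 0.09, -0.07 and -0.11. Mutant replicate 1 was thus the highest of all 6 and mutant replicates 2 and 3 the lowest. The group means were 0.01 ± 0.057 (SD, n = 3) and -0.03 ± 0.108 (SD, n = 3), so the difference of -0.04 was smaller than either SD. Over the whole cluster, mutant replicate 1 was the highest mutant pool in 15 of 22 genes, against 34.1% of all genes. Wild-type replicate 1 was above wild-type replicate 3 in 15 of 22, against 50.7% of all genes. Either mutant replicate 2 or 3 was the lowest of the 6 pools in 15 of 22, against 28.9%. These orders were noticed in the data. Over all 29 Pcdh genes, those of the cluster included, the corresponding counts were 20, 20 and 21. The orders were therefore not particular to the cluster and were also seen in non-clustered protocadherins. Among the Cdh genes the counts were 7, 7 and 5 of 15, and the mean over the 15 genes stayed between -0.08 and -0.01 in the 6 pools. Over all genes the mean was between -0.03 and -0.02 in each pool.

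**Figure D4:**
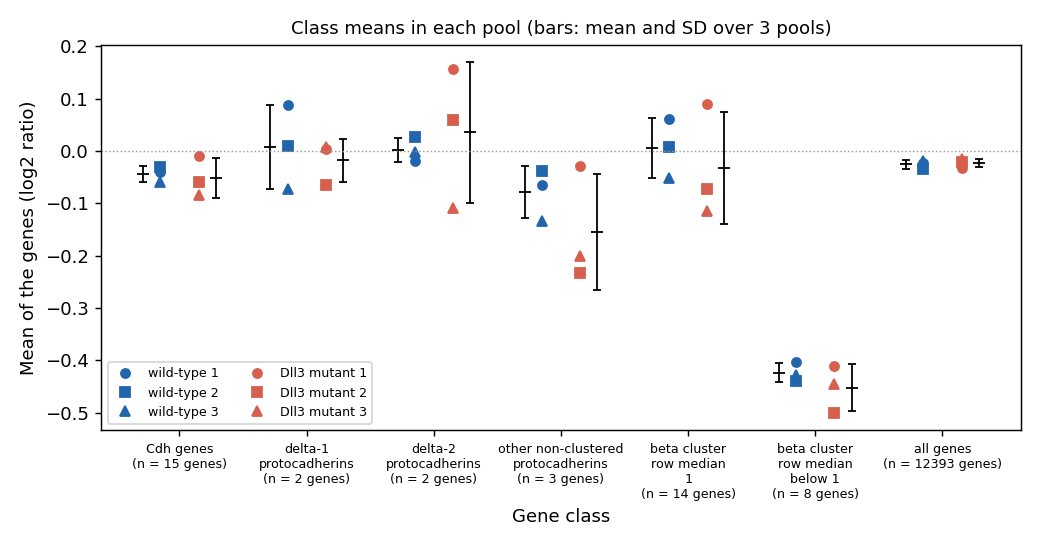
Mean log2 ratio over the genes of a class (y axis) in each pool for 6 classes and for all genes (x axis, number of genes in brackets), with blue for wild-type, red for Dll3 mutant, the marker shape for the replicate number and black bars for the mean ± SD of 3 pools. The SD bars of the 2 genotypes overlap in every class, and mutant replicate 1 lies above the other mutant pools in the Cdh class, the delta-2 class, the other non-clustered class and both beta-cluster classes.

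Probe sets of the family also differed from the rest of the array in their reference. The median over the 6 pools was below 1 in 13 of the 55 probe sets (23.6%), where 6.53% of all 22626 probe sets had such a median. In the beta cluster it was 9 of 23 probe sets (39.1%), with Pcdhb22 lowest at 0.532 and Pcdhb14 at 0.587 and 0.675. Pcdhb9 was at 0.606, Pcdhb10 at 0.766, Pcdhb17 at 0.802, Pcdhb16 at 0.806, Pcdhb7 at 0.838 and Pcdhb18 at 0.984. Among the Cdh genes 3 of 20 probe sets were of this kind, those of Cdh8 and Cdh9 and 1 of Cdh13, and of the non-clustered protocadherins 1 of 12, in Pcdh20. The 8 beta-cluster genes concerned averaged -0.42 ± 0.019 (SD, n = 3) on the log2 scale for wild-type against -0.45 ± 0.045 (SD, n = 3) for mutant. Of these Pcdhb18 was near 1, at 0.971, 0.963 and 1.086 in wild-type and 1.007, 0.937 and 0.996 in mutant pools. The labels do not say what such a reference stands for. Without these probe sets 21 Pcdh genes remained, of which 14 were below 0 (median -0.044), and 13 Cdh genes, of which 7 were (median -0.011).

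**Figure D5:**
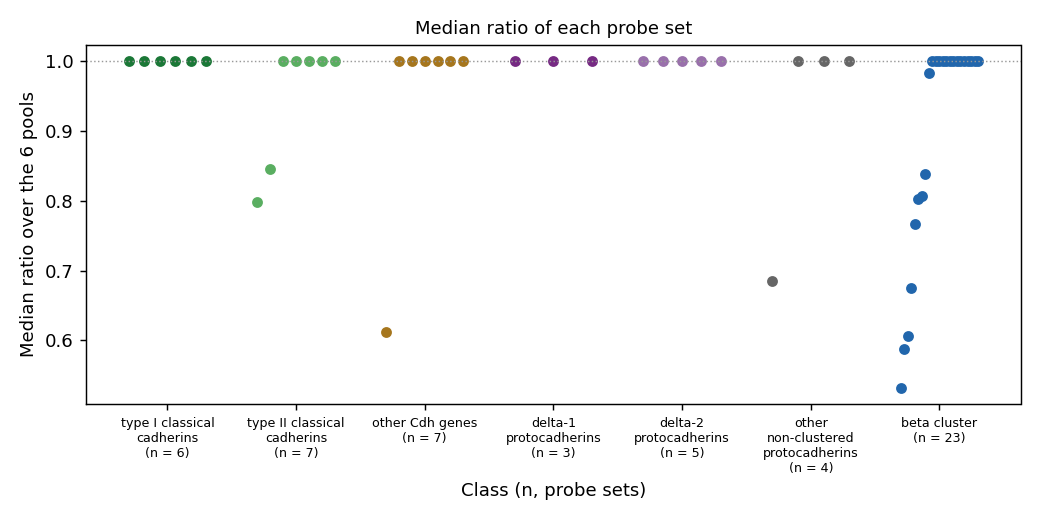
Median ratio over the 6 pools (y axis) of each of the 55 probe sets, by class (x axis, number of probe sets in brackets); points are spread sideways in rising order only to keep them apart. Most points lie at 1, and 9 of the 23 beta-cluster probe sets lie between 0.532 and 0.984.

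The alpha cluster was read only by probe sets that name many of its genes, which share their last exons. The 6 of them had log2 differences from -0.07 (SE 0.095) to 0.05 (SE 0.085), with overlapping groups in each. None reached an unadjusted p of 0.05 in the fit over probe sets, against 2.63% of all probe sets.

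Genes that work with the family were followed in 7 lists. Of the catenins and plaque proteins that tie cadherins to actin, 7 of 10 measured genes were above 0 (median 0.021). Beta-catenin (Ctnnb1) was at -0.04 (SE 0.077), alpha-catenin (Ctnna1) at 0.02 (SE 0.092), p120-catenin (Ctnnd1) at -0.03 (SE 0.091) and vinculin (Vcl) at 0.08 (SE 0.097). Ctnnal1 was at 0.12 and Jup, plakoglobin, at 0.07. The 4 nectins, which start junctions before cadherins arrive, ran from -0.13 (Nectin1) to 0.06 (Nectin2), with Nectin3 at 0.05. Of 9 desmosomal genes 6 were below 0, with Pkp1 at 0.12, Ppl at -0.10 and Pkp3 at -0.09. The list of large and atypical cadherins held 10 measured genes, not all of them cadherins. In it Clstn3, a calsyntenin of synapses, had ratios of 1.08, 1.212 and 1.133 in wild-type and 0.92, 0.894 and 0.849 in mutant pools. The groups did not overlap, and its difference was -0.36 (SE 0.077, adjusted p = 0.9997). Cdhr5, a cadherin of epithelial brush borders, had 1.09, 1.095 and 1.011 in wild-type and 0.9, 0.989 and 0.941 in mutant pools. Its groups did not overlap either, at -0.18 (SE 0.076), and Clstn1 was at 0.15, also with groups that did not overlap. The 10 repressors and drivers of cadherin switching were 5 above and 5 below 0, with Snai1 at -0.13 (SE 0.087), Foxc2 at -0.15 (SE 0.178) and Twist1 at -0.08 (SE 0.103). Of 8 genes listed under cadherin cleavage and turnover, not all of them specific to cadherins, 5 were below 0. Psen2 was at -0.10 and Mib1 at -0.08, both with groups that did not overlap, and Mmp14 was at 0.09. Of 8 genes listed as partners of protocadherins inside the cell, some of them for chromatin proteins, 5 were above 0. The kinase gene Ptk2b was at 0.18 (SE 0.104), Abi1 at 0.11 and Ctcf, whose product chooses clustered promoters, at -0.07. No gene of the 7 lists passed the adjusted threshold (0 of 59), and 2 (Clstn3 and Cdhr5) had an unadjusted p under 0.05, against 2.67% of all genes. Of these 59 the groups did not overlap in Clstn3, Cdhr5, Clstn1, Psen2 and Mib1, against 7.46% of all genes.

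Markers of the cell types in the tissue were set beside these values. Myotome markers were above 0 in 5 of 8 genes (median 0.16), with mean log2 ratios over the list of -0.09 to -0.05 in wild-type and 0.02 to 0.24 in mutant pools, while the muscle cadherin Cdh15 was at 0.00. Of these markers 4 were higher at an unadjusted p under 0.05 (Myog, Tnnt1, Acta1 and Actc1), against 1.31% of all genes. Myod1 was at 0.01, and Myf5 (-0.18), Des (-0.05) and Chrna1 (-0.03) were below 0. Erythroid markers were above 0 in 6 of 6 (median 0.21), with -0.15 to -0.0004 in wild-type and 0.02 to 0.24 in mutant pools. At an unadjusted p under 0.05, 4 of them were higher (Hba-x, Hbb-bh1, Slc4a1 and Klf1), against the same 1.31% of all genes. Neuron markers were above 0 in 6 of 9 (median 0.08), from -0.15 to 0.15 in wild-type and -0.24 to 0.33 in mutant pools. The mutant pools were thus far apart. Mnx1 was lower at an unadjusted p under 0.05, against 1.36% of all genes. Neural progenitor markers were above 0 in 6 of 8 (median 0.03), neural crest markers in 4 of 6 (0.03), surface ectoderm markers in 6 of 8 (0.14), endothelial markers in 6 of 8 (0.05), heart markers in 4 of 8 (0.01) and endoderm markers in 4 of 9 (-0.02). Somite and presomitic markers were below 0 in 8 of 12 (median -0.06), among them Uncx. The sex score, Xist minus the mean of Eif2s3y, Kdm5d and Uty on the log2 scale, was -0.08, -1.48 and -1.73 in wild-type and 0.04, 0.81 and 0.73 in mutant pools, so it parts the genotypes. The part of any of these in the members' values was not tested. The fit with the sex score given above cannot tell the score from genotype, since the score parts the 2 groups. Dll3 was at -0.02 (SE 0.073). The position of its probe set relative to the targeted part of the gene is not known here, and its value therefore does not check the labels.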

How the data were processed

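Each of the 6 pools was measured on its own Affymetrix MOE430A array, from total RNA. The authors deposited 1 table of 22690 probe sets, whose values are linear ratios to a reference of each probe set. This was read from the values, which run from 0.266 to 2.498 with a median of 1 (within 0.0015) in 93.4% of probe sets and lower in 1497. Per the submitters' processing notes RMA and MAS5 are the named tools. Their roles, and how arrays were scaled, are not stated. Ratios keep no signal level. The SE of a gene rests on its spread over the pools, as limma estimates it, and on the number of arrays. Its median over the genes was 0.087.

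The 64 control probe sets were left out. Log2 ratios of the 20380 probe sets with 1 gene in the platform annotation were averaged per gene (691 name several genes and 1555 none). Symbols were updated by gene identifier for 20351 of them (RefSeq, GRCm38.p6). Mutant and wild-type pools were compared in R 4.3.3 by limma 3.58.1 (eBayes after lmFit, no trend, genotype only, two-sided, Benjamini-Hochberg over 12393 genes, threshold 0.05), and likewise over probe sets. An exact permutation test of 3 against 3 pools cannot go below p = 0.1 and was not used. The series design calls the pools biological replicates. The fit was tested on simulated data.

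The members, lists and tests were chosen with earlier results of these data known. Values in every pool are given for Cdh2, Cdh3, Cdh4, Cdh6, Cdh11, Cdh15, Pcdh7, Pcdh10 and Pcdh18 (Pcdh19 is not among the members), for the 5 Cdh and 7 Pcdh genes of smallest unadjusted p, and for members whose groups do not overlap. Of each partner list the 3 genes of smallest unadjusted p are named. Cdh17, Ctnnb1, Ctnna1, Ctnnd1, the pool values of Pcdhb18, Clstn3 and Cdhr5, and the markers named fall outside that rule and were chosen after their values were seen. Plots were made with matplotlib 3.10.9.

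The fit was repeated with quantile normalization, median centring, array weights, a variance trend, the sex score as a covariate, other choices of probe sets, a replicate block, and with each pool or both pools numbered 3 left out.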

Additional observations from a re-analysis of the deposited data

How the results depend on the processing

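No member passed the adjusted threshold in limma under any of the 16 alternatives, and the smallest adjusted p of a member was 0.462, with array weights. Members at an unadjusted p under 0.05 numbered 0 to 7, with 7 of 44 under array weights (1200 of all 12393 genes), 5 with the replicate block (Cdh10, Pcdhb3, Pcdhb13, Pcdhb15 and Pcdhb19; 617 of all genes) and 5 without mutant replicate 1 (632 of all genes). Of all genes 0 passed, with 331 at an unadjusted p under 0.05 in limma, and 1 passed with array weights, with the replicate block and with the variance trend (Uncx in each). Over probe sets 0 passed, with 595 at an unadjusted p under 0.05, and 1 passed with array weights and with the replicate block. Leaving out each pool gave 0 to 1 for genes and for probe sets (Xist, without wild-type replicate 1). Genes at an unadjusted p under 0.05 were 156 with the sex score and 174 to 683 with 1 pool left out. Probe sets were 1770 with array weights, 1072 with the replicate block, 267 with the sex score and 319 to 1229 with 1 pool left out. By their labels the pools of the 2 genotypes share only a number, and what else they may share is not known here. Over 22626 probe sets the residuals of wild-type and mutant pools 1, 2 and 3 correlated at 0.37, -0.02 and 0.37. Pairs of unlike number ran from -0.43 to 0.20. The block changed no call other than that of Uncx. The median of the Cdh genes ran from -0.019 to 0.017 and that of the Pcdh genes from -0.071 to 0.01, so both crossed 0. Of the 17 members with a difference larger than its SE, all kept their sign in 15 alternatives (14 of 14 without probe sets of median below 1), and 2 changed it with the sex score, where Pcdhb1 was at 0.02 and Pcdhb13 at -0.0454. The causes were not tested. Of the other members given in every pool, Cdh3 (-0.10) and Cdh4 (0.23) moved by over 1 SD with the sex score, and Pcdh7 (0.08) with its most variable probe set. Ratios hold no signal over background, so a limit by brightness could not be read.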
